A study of Mus musculus with 21 samples.

Results

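Hematopoietic stem cells (HSCs) from the bone marrow of RFP-EGFP-LC3 reporter mice were compared by colour: RFP single positive HSCs against RFP GFP double positive HSCs. The 2 groups were taken as labelled and hold 3 libraries each, 6 of the 21 libraries in the series. No gene was selected beforehand, and all genes with enough counts were compared. The HSCs carried the surface phenotype CD48- CD150+ within the LSK (lineage-negative, Sca-1-positive, Kit-positive) fraction. Single positive, double positive and the 3 double negative libraries of the same experiment share the reporter genotype and received no treatment. The other libraries of the series come from wild-type mice and from Mx1-Cre mice with Atg5 deleted, given bortezomib or DMSO. They entered no comparison of expression here, only an estimate of the spread between libraries. On the promoter that drives the reporter, the age and sex of the mice and the number of mice behind a library, the sources used here say nothing. Since nothing says that each library came from separate mice, p-values measure the spread between these libraries only, which may be technical in part.

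Autophagy encloses cytoplasm in a membrane vesicle, the autophagosome, which fuses with a lysosome where its content is degraded. LC3 is attached to that membrane by a conjugation system built around Atg5 and Atg7, and a cargo receptor such as Sqstm1 (p62) links cargo to LC3. In a tandem RFP and EGFP tag on LC3, EGFP is quenched by the acid of the lysosome whereas RFP is not, so RFP without GFP marks LC3 in acid compartments and both colours mark LC3 that has not been acidified. The sort therefore reads the state of a protein, and the comparison asks whether HSCs that differ in it also differ in their messenger RNA. HSCs are known to rely on autophagy for their maintenance.

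Single positive libraries held 18708544 to 21362166 counts and double positive libraries 18918632 to 22711514, so depth did not separate the groups. Between 16862 and 18094 genes were detected in these 6 libraries. The genes of the sort were present: Kit, the receptor for stem cell factor, had 622, 821 and 698 CPM (counts scaled to a common library size) in single positive libraries, against 671, 611 and 1067 CPM in double positive libraries. Cd48, which the sort excludes, was low, with 1.85, 8.20 and 15.9 CPM in single positive libraries and 8.17, 10.3 and 12.5 CPM in double positive libraries. Both genes overlapped between the groups. Libraries with the number 2 stood apart in Xist, the RNA of the inactive X chromosome, which made 99.9% of Xist plus Ddx3y counts in single positive library 2 and 97.4% in double positive library 2. In the other 4 libraries of the comparison that share was between 0% and 5.45%, so both groups were split in the same way. Ddx3y lies on the Y chromosome, so the number 2 libraries came mostly from female cells and the other 4 mostly from male cells. The spread within a group thus includes a difference between mice. Double positive libraries 1 and 2 also stood apart from the other reporter libraries on the third and second principal components, which hold 14.6% and 15.6% of the variance.

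No gene differed between single positive and double positive HSCs at a Benjamini-Hochberg adjusted p under 0.05 in edgeR's quasi-likelihood test (0 of 15375 genes tested, or 0%, with a smallest adjusted p of 0.9999). At an unadjusted p under 0.05 there were 209 genes, which is 1.36% of those tested, 126 of them higher (0.82%) and 83 lower (0.54%) in single positive HSCs. Leaving out 1 library changed that number, from 168 without single positive library 3 to 550 without double positive library 3, and the adjusted count was 0 each time. The DESeq2 Wald test called 2 genes, and limma voom called 0. In 1131 genes, or 7.36%, the 3 single positive values did not overlap the 3 double positive values, 591 of them higher (3.84%) and 540 lower (3.51%). With 3 libraries in each group some genes separate in this way even where nothing differs, so this share is a background and not a count of differences. Fold changes are given as log2 of single positive over double positive, and their median over all genes was -0.0032, with 7614 positive and 7761 negative.

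How closely a fold change was estimated depended on the level of a gene. The intervals are for single genes, without adjustment for the number tested, so they do not give the difference that a call would need. Among the 2395 genes at 100 CPM or more, the median 95% interval reached 1.36-fold on either side of the estimate, and 0 genes had an estimate beyond 2-fold. For 5259 genes between 20 and 100 CPM it reached 1.51-fold, with 2 estimates beyond 2-fold. Abundant transcripts were thus measured closely. Between 5 and 20 CPM the interval reached 1.89-fold (2942 genes), with 65 estimates beyond 2-fold. Between 1 and 5 CPM it reached 3.80-fold (2649 genes), and under 1 CPM 10.0-fold (2130 genes), where 841 estimates lay beyond 2-fold.

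**Figure D1:**
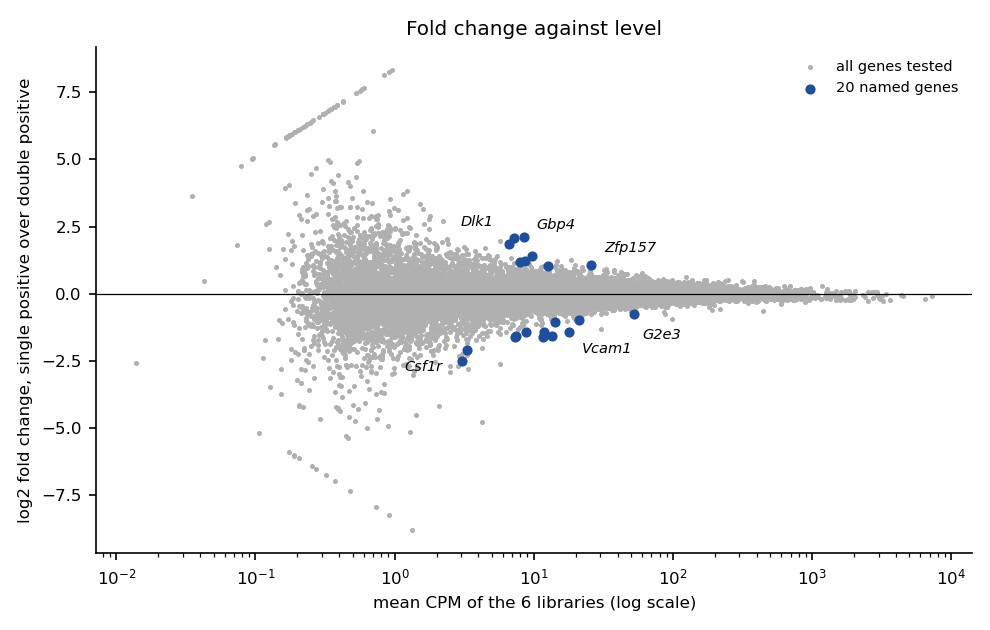
The log2 fold change of single positive over double positive HSCs (vertical axis) is plotted against the mean CPM of the 6 libraries on a log scale (horizontal axis), with 1 point for each of the 15375 genes tested and the 20 named genes in blue. The points form a funnel that narrows with level: no gene at 100 CPM or more lies beyond 2-fold, and the oblique streaks at low level are genes with 0 counts in all libraries of a group.

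Across all tested genes, libraries of different colour were about as far apart as libraries of the same colour. The root mean square difference in log2 CPM had a median of 1.14 between single positive and double positive libraries (range 0.836 to 1.19). Within the single positive group the median was 0.982, and within the double positive group it was 1.15. The closest pair of all was single positive library 3 and double positive library 3, at 0.836. Each single positive library was nearer to double positive library 3 than to either of the other 2 libraries of its own group, and double positive libraries 1 and 2 were 1.33 apart.

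The machinery of autophagy, which the reporter is built on, showed no difference between the groups that passed the test. Map1lc3b, the main LC3 gene, had 470, 394 and 426 CPM in single positive libraries, against 506, 445 and 439 CPM in double positive libraries, a log2 fold change of -0.11 with a 95% interval of -0.63 to 0.42. Reads of the reporter's LC3 cannot be told apart from those of an endogenous LC3 gene of the same sequence in these counts. Gabarapl1, a member of the same ubiquitin-like family, had 414, 333 and 306 CPM in single positive libraries and 359, 360 and 302 CPM in double positive libraries (log2 fold change 0.045, interval -0.50 to 0.59). Gabarapl2 had 81.7, 56.9 and 63.6 CPM in single positive libraries and 87.4, 102 and 65.1 CPM in double positive libraries (-0.33, interval -0.84 to 0.18). Across the 5 tested genes of the LC3 and GABARAP family the median was -0.11, with 2 positive and 3 negative, and it was -0.0018 without double positive library 2. None passed the test, and in none did the groups separate.

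Sqstm1, the cargo receptor that is itself degraded with its cargo, had 325, 316 and 370 CPM in single positive libraries and 270, 316 and 349 CPM in double positive libraries, with an interval of -0.25 to 0.48. Atg5, required for LC3 conjugation, had 121, 97.0 and 87.0 CPM in single positive libraries and 135, 94.5 and 104 CPM in double positive libraries, with an interval of -0.63 to 0.37. Tfeb, a master regulator of autophagy and lysosome genes, had 16.7, 23.6 and 21.5 CPM in single positive libraries and 12.6, 23.4 and 18.97 CPM in double positive libraries, with an interval of -0.49 to 0.83. Each of these intervals includes 0 and lies within 2-fold on either side. The related factor Tfe3 was less certain, with a log2 fold change of 0.24 and an interval of -1.003 to 1.48.

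By function, the medians of the autophagy lists lay close to that of all genes. For the 20 genes of autophagosome initiation the median was 0.034 (11 positive), for the 11 genes of LC3 conjugation -0.081 (5 positive), and for the 23 receptors and aggresome factors 0.051 (15 positive). The 15 genes of fusion between autophagosome and lysosome had a median of -0.063 and held the widest differences on either side. Each of these 4 medians turned its sign with 1 library left out. Epg5, a tether that gives this fusion its specificity, had 8.99, 6.78 and 6.31 CPM in single positive libraries and 13.5, 22.6 and 10.8 CPM in double positive libraries (log2 fold change -1.09, interval -2.08 to -0.092). Plekhm1, an adaptor between Rab7, LC3 and the HOPS tethering complex, had 34.0, 27.5 and 27.1 CPM in single positive libraries and 16.6, 20.8 and 20.2 CPM in double positive libraries (0.62, interval -0.12 to 1.36). In both genes the groups did not overlap, but in opposite directions, and edgeR's Benjamini-Hochberg adjusted p was 0.9999 for each.

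No lysosomal gene passed the test either. The 35 hydrolases and membrane proteins had a median of -0.046, with 14 positive and 21 negative, and the median was 0.0020 without double positive library 1. Groups did not overlap in 3 of the 35, a share close to the 7.36% over all genes. Lipa, one of the 3, the acid lipase that releases cholesterol and fatty acids, had 63.8, 71.6 and 68.9 CPM in single positive libraries, against 89.9, 91.0 and 80.0 CPM in double positive libraries. Neu1, a sialidase, and Asah1, the acid ceramidase, were the other members without overlap, at log2 fold changes of -0.32 and -0.20. Ctsd, the aspartic protease cathepsin D, and Lamp1, a major lysosomal membrane protein, overlapped, with intervals of -0.30 to 0.35 and -0.23 to 0.42. The 16 subunits of the proton pump that acidifies the lysosome had a median of -0.098, which was -0.029 without double positive library 2. Atp6v1a, its catalytic subunit, had 143, 156 and 146 CPM in single positive libraries and 176, 179 and 171 CPM in double positive libraries, and Atp6ap1, an accessory subunit, lay the other way at a log2 fold change of 0.13.

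**Figure D2:**
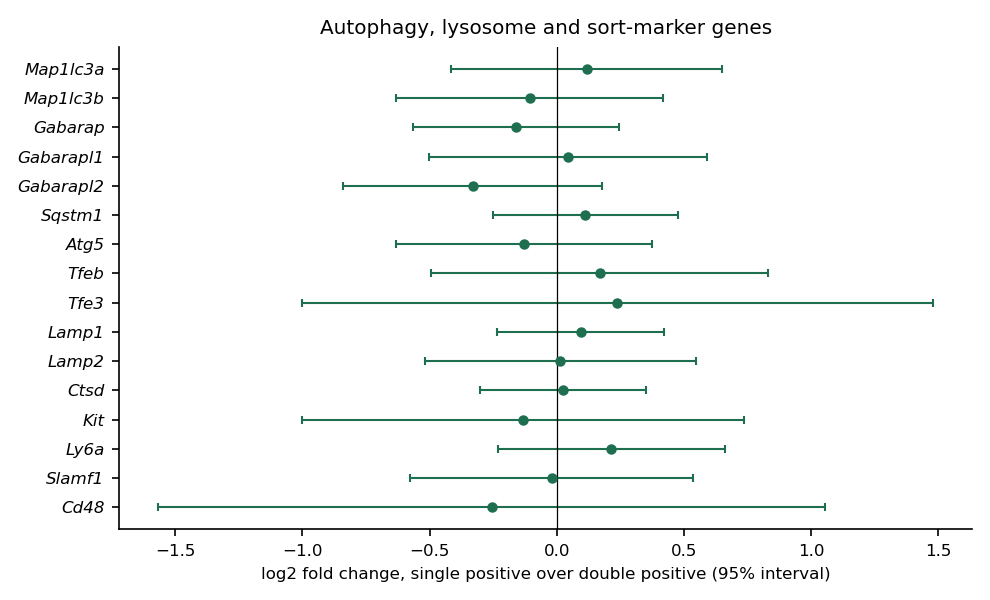
Log2 fold changes of single positive over double positive HSCs (horizontal axis) with 95% intervals from the edgeR fit are drawn for 12 autophagy and lysosome genes and 4 genes of the sort (rows). Every interval crosses 0; Cd48 and Tfe3 have the widest and Lamp1 and Ctsd the narrowest.

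The genes of smallest p were not autophagy genes. Of 10026 protein-coding genes that have a standard name and average 5 CPM or more in either group, 687 had no overlap between the groups, 375 higher and 312 lower, and the 20 of smallest unadjusted p are named here. They comprise 8 higher in single positive HSCs, with log2 fold changes of 1.04 to 2.11, and 12 lower, at -2.48 to -0.74. All 20 had an adjusted p of 0.9999 in edgeR with Benjamini-Hochberg adjustment. Double negative libraries were on average nearer to the double positive level in 5 of the 8 and in 8 of the 12. Of the 20 genes, 8 overlap another annotated gene, and their counts are uncertain to that extent because the strand setting of the counting is not given in the sources used here.

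Dlk1 had the smallest p of these (log2 fold change 2.07, SE 0.44, interval 1.13 to 3.02). Dlk1 encodes a membrane protein with EGF repeats related to Notch ligands, is expressed from the paternal allele and lies at chr12:109452823-109463336 (GRCm38, plus strand). It had 14.0, 7.71 and 13.5 CPM in single positive libraries, from 294, 157 and 259 counts, against 2.74, 2.68 and 2.92 CPM in double positive libraries, from 51, 59 and 70 counts. Every single positive library was above every double positive library, and double negative libraries had 5.96, 9.77 and 4.87 CPM, above every double positive library and with library 2 within the single positive range. Leaving out each library gave 1.93 to 2.31. Dlk1 was a call in DESeq2 (adjusted p 0.0304, Benjamini-Hochberg) and in no other of the alternatives run. The other DESeq2 call, named here after its values were seen, was the noncoding gene Gm26529, at 0.0951, 0.196 and 0.365 CPM in single positive libraries, against 4.67, 4.09 and 3.17 CPM in double positive libraries (DESeq2 adjusted p 0.000466).

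Dlk1 belongs to a list of 14 quiescence and imprinted genes, 12 of them tested, which had a median of 0.17, with 9 positive, and of 0.083 to 0.28 with 1 library left out. Meg3, the maternally expressed noncoding RNA next to Dlk1 on chromosome 12, had 1.43, 1.87 and 2.19 CPM in single positive libraries, against 0.215, 0.227 and 0.584 CPM in double positive libraries (log2 fold change 2.39, interval 0.25 to 4.53). Plagl1, an imprinted zinc finger factor that regulates other imprinted genes, had 30, 71 and 11 counts in single positive libraries and 0 in each double positive and each double negative library. Against a floor of 3 counts per library, Plagl1 was at least 13.0-fold higher in single positive HSCs, and at least 7.10-fold without single positive library 2. Both bounds cover counting error only. These 3 genes were the list's only members without overlap, and all had an unadjusted p under 0.05 but an adjusted p of 0.9999 (edgeR, Benjamini-Hochberg). All 3 were higher, and over all genes 3.84% were higher without overlap and 0.82% higher at an unadjusted p under 0.05. The list was chosen with earlier results of these data known, so these shares are given for scale only. Other imprinted genes of the list did not separate. Cdkn1c, a cell cycle inhibitor that holds HSCs quiescent, had 131, 102 and 83.7 CPM in single positive libraries and 110, 93.4 and 84.9 CPM in double positive libraries. H19 had 2.43, 2.36 and 1.10 CPM in single positive libraries, 0.322, 2.77 and 1.13 CPM in double positive libraries and 0 counts in every double negative library. Within the Dlk1 to Dio3 domain, a set added after these values were seen, 4 of 7 genes could be tested and 3 were positive, and the third of these, the noncoding RNA Rian, overlapped at 1.33, 0.933 and 1.36 CPM in single positive libraries and 0, 1.36 and 1.00 CPM in double positive libraries.

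Of the other genes higher in single positive HSCs, Lmna, which encodes the nuclear lamins A and C, had 15.2, 16.8 and 19.2 CPM in single positive libraries, against 8.49, 5.73 and 10.6 CPM in double positive libraries (log2 fold change 1.04). Fgfr3, a receptor for fibroblast growth factors, had 15.9, 7.32 and 7.98 CPM in single positive libraries and 2.15, 4.14 and 2.29 CPM in double positive libraries (1.86). In double negative libraries Lmna was at 12.8, 13.6 and 17.2 CPM and Fgfr3 at 3.43, 7.72 and 1.88 CPM, which overlap both groups for Fgfr3 and the single positive group for Lmna. Diaph2, a formin that builds actin filaments, had 14.0, 13.3 and 15.2 CPM in single positive libraries and 6.50, 1.91 and 7.67 CPM in double positive libraries (1.40). Prrg1, a membrane protein with a vitamin K-dependent Gla domain, had 13.7, 11.6 and 11.0 CPM in single positive libraries and 4.08, 4.73 and 6.88 CPM in double positive libraries (1.21). Gbp4, an interferon-induced GTPase, had 16.0, 18.2 and 6.99 CPM in single positive libraries and 1.61, 3.00 and 4.88 CPM in double positive libraries (2.11), but the list of 34 interferon-stimulated genes had a median of only 0.089, with 22 positive, and of -0.064 without double positive library 1. The zinc finger genes Zfp157 and Zfp677 differed by 1.08 and 1.18. Gbp4, Zfp157 and Zfp677 belong to multigene families, and reads shared with near relatives make their counts less certain.

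**Figure D3:**
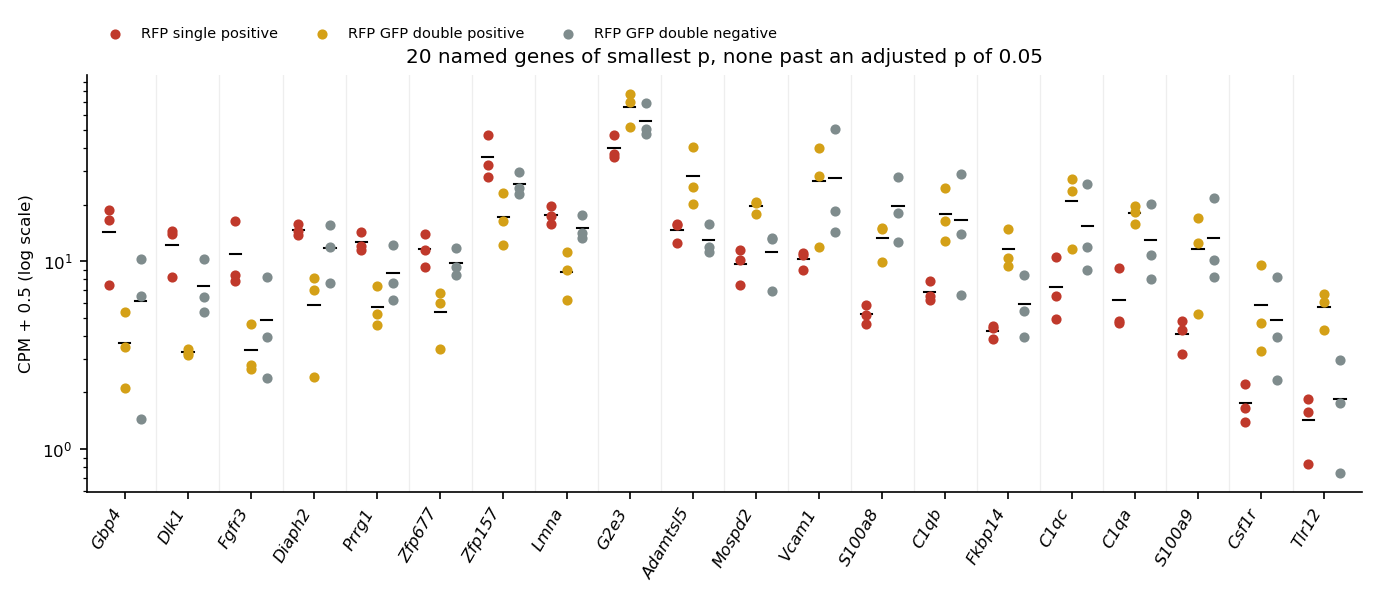
CPM plus 0.5 on a log scale (vertical axis) is shown for the 20 named genes (horizontal axis), ordered by fold change, with 1 point per library and a black bar for the mean of the 3 libraries of a group. Red points (single positive) lie above all yellow points (double positive) for the 8 genes on the left and below them for the 12 on the right; grey points are double negative libraries.

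The 12 genes lower in single positive HSCs include C1qa, C1qb, C1qc, Csf1r and Vcam1 of the monocyte and macrophage list and S100a8 and S100a9 of the neutrophil list. C1qa, C1qb and C1qc encode the 3 chains of C1q, which starts the classical complement pathway and is made chiefly by macrophages. They lie side by side at chr4:136880129-136886187 (C1qb), chr4:136889804-136893065 (C1qc) and chr4:136895917-136898803 (C1qa), all on the minus strand of GRCm38. S100a8 and S100a9 encode the subunits of calprotectin, a calcium-binding protein abundant in neutrophils and monocytes, and are neighbours at chr3:90668978-90670035 and chr3:90692632-90695721. The 250 bases before the RefSeq start of 4 of these genes (GRCm38.p6) are printed to show where the letters GAGGAA, the core that the myeloid factor PU.1 recognises, stand on either strand (capitals, as GAGGAA or TTCCTC). The windows are chr4:136886201-136886450 (minus strand, C1qb), chr4:136892915-136893164 (minus strand, C1qc), chr3:90668821-90669070 (plus strand, S100a8) and chr3:90695722-90695971 (minus strand, S100a9).
C1qb: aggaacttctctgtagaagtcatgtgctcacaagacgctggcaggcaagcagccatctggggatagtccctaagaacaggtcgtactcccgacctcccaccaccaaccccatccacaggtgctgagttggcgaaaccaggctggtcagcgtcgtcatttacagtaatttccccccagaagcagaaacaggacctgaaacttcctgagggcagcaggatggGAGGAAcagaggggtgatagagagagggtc
C1qc: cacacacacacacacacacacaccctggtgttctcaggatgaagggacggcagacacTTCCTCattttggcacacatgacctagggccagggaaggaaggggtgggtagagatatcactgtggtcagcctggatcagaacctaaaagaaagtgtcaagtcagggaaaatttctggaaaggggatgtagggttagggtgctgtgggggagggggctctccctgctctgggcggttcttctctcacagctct
S100a8: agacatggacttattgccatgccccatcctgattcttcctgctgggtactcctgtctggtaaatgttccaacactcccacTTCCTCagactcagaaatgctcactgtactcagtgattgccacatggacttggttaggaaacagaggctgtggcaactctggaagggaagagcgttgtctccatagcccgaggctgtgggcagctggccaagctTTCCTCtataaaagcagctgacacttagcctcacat
S100a9: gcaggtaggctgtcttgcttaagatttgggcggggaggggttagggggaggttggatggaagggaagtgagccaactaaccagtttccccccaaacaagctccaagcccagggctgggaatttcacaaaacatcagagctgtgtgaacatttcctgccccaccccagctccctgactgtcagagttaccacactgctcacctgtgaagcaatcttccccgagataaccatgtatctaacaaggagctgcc
C1qb and C1qc hold the 6 letters at 1 place each, S100a8 at 2 places and S100a9 at 0. The same letters occur in 23.3% of all 32851 promoter windows of this length (7639 windows). The C1qc and S100a8 windows, set by the RefSeq start, run into these genes as GENCODE places them. The S100a8 match nearer the RefSeq start lies in that stretch. A match is a description of the sequence, and factor binding was not measured.

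C1qa had 4.33, 4.17 and 8.71 CPM in single positive libraries, against 19.2, 17.8 and 15.3 CPM in double positive libraries (log2 fold change -1.60, SE 0.43, interval -2.53 to -0.67). C1qb had 6.04, 5.75 and 7.35 CPM in single positive libraries and 23.9, 12.3 and 15.8 CPM in double positive libraries (-1.44). C1qc had 5.99, 4.42 and 9.96 CPM in single positive libraries and 26.7, 11.0 and 23.1 CPM in double positive libraries (-1.58). The 3 genes were thus lower in every single positive library, and double negative libraries ranged over both levels, from 6.09 to 28.7 CPM for C1qb. S100a8 had 5.37, 4.13 and 4.69 CPM in single positive libraries and 14.6, 9.36 and 14.3 CPM in double positive libraries (-1.43). S100a9 had 4.33, 2.70 and 3.81 CPM in single positive libraries and 16.5, 4.73 and 11.9 CPM in double positive libraries (-1.61). For this pair the double negative libraries lay with or above the double positive ones, at 17.5, 27.6 and 12.1 CPM for S100a8.

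Csf1r, the receptor for the macrophage growth factor CSF1, was at a lower level, with 1.71, 0.884 and 1.15 CPM in single positive libraries, against 4.19, 8.999 and 2.83 CPM in double positive libraries (log2 fold change -2.09, SE 0.71). Vcam1, an adhesion molecule for the integrin VLA-4 that marrow macrophages and stromal cells display, had 10.6, 8.45 and 10.2 CPM in single positive libraries and 39.5, 11.3 and 27.7 CPM in double positive libraries (-1.42). Adgre1, which encodes the macrophage antigen F4/80, had 2.62, 2.01 and 0.417 CPM in single positive libraries and 11.7, 3.68 and 5.25 CPM in double positive libraries (-2.02). In CPM, Csf1r, Vcam1 and Adgre1 spread more in double positive libraries, where their level was higher. In proportion to level, Adgre1 spread more in single positive libraries. Double positive library 1 was the highest of the 6 in C1qb, C1qc, S100a8, S100a9, Vcam1 and Adgre1, and double positive library 2 was the lowest of its group in C1qb, C1qc, S100a8, S100a9, Vcam1 and Adgre1.

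Over the whole list of 17 monocyte and macrophage markers, 16 could be tested, 15 were negative and the median was -1.29. Groups did not overlap in 6 members, all lower in single positive HSCs, and the same 6 had an unadjusted p under 0.05, namely Csf1r, Adgre1, C1qa, C1qb, C1qc and Vcam1. Over all genes, 3.51% did not overlap and were lower, and 0.54% were lower at an unadjusted p under 0.05. This list too was chosen with earlier results of these data known, so the shares give a scale and no support. No member was called. Without double positive library 1, the number at an unadjusted p under 0.05 was 3, and over all alternatives it was 3 to 7 with medians of -1.43 to -1.05. The most abundant members did not follow this pattern. Lyz2, the lysozyme of myeloid cells, had 677, 528 and 581 CPM in single positive libraries and 731, 582 and 563 CPM in double positive libraries. The antigen presentation genes H2-Aa and Cd74 overlapped as well, with log2 fold changes of -0.12 and 0.47. Their level set the list's sum, which was 847 to 1326 CPM in single positive and 954 to 1261 CPM in double positive libraries. With Lyz2, H2-Aa and Cd74 left aside, a choice made after seeing the values, the rest summed to 51.2, 46.5 and 66.7 CPM in single positive libraries, 161, 95.6 and 121 CPM in double positive libraries and 91.1, 221 and 61.3 CPM in double negative libraries. In bulk RNA, fewer cells of a type and less RNA per cell cannot be told apart, and the part that other cells in the sort may have in these values was not tested.

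**Figure D4:**
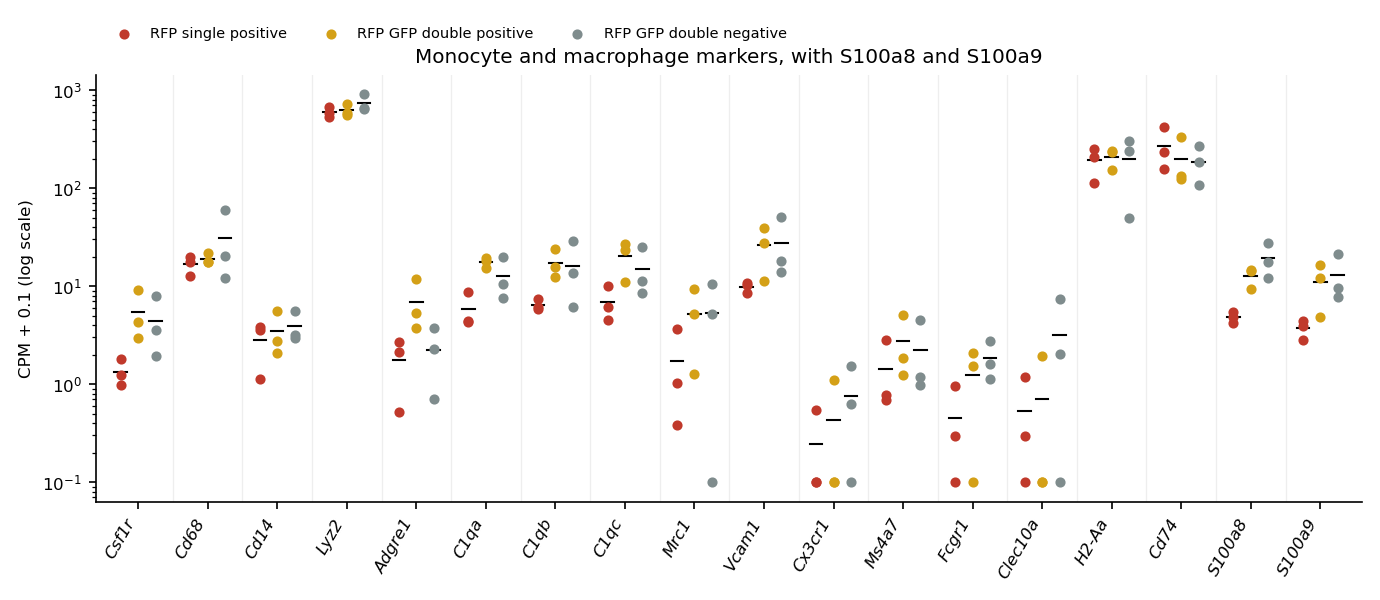
CPM plus 0.1 on a log scale (vertical axis) is shown for the 16 tested monocyte and macrophage markers and for S100a8 and S100a9 (horizontal axis), with 1 point per library and a black bar for each group's mean. Red points (single positive) lie below all yellow points (double positive) for Csf1r, Adgre1, the C1q genes, Vcam1, S100a8 and S100a9, and overlap them for Lyz2, H2-Aa and Cd74, the members of highest level.

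The neutrophil list, 10 of 16 members tested, had a median of -1.05 with 9 negative. S100a8 and S100a9 were its members without overlap on the lower side. Its sum was 322, 198 and 314 CPM in single positive and 372, 319 and 332 CPM in double positive libraries, mostly from Prtn3. Tested members other than Prtn3, Gfi1, S100a8 and S100a9 made up little of that sum, so their fold changes and the median are uncertain. With only the 6 libraries compared, 7 members could be tested. The granule protease gene Prtn3 overlapped at 294, 173 and 289 CPM in single positive libraries and 331, 292 and 291 CPM in double positive libraries, and Elane, a defining marker, was at or near 0 (at most 0.667 CPM). Its positive member was Gfi1, a transcriptional repressor that HSCs use as well and that the HSC list also holds, with 16.5, 16.6 and 13.9 CPM in single positive libraries, against 6.93, 6.59 and 9.55 CPM in double positive libraries (log2 fold change 1.03, interval 0.16 to 1.89). Double negative libraries had 18.6, 17.3 and 6.37 CPM. Erythroid, megakaryocyte, B cell, T and NK cell and multipotent progenitor markers had medians of -0.27, -0.12, -0.068, 0.14 and -0.040, and the sign of each turned under at least 1 alternative. Leaving out 1 library gave -0.44 to 0.055 for the erythroid, -0.32 to 0.058 for the megakaryocyte, -0.58 to 0.32 for the B cell and -0.23 to 0.15 for the progenitor median, and over all alternatives the T and NK cell median was -0.045 to 0.31. Car1, an erythroid carbonic anhydrase, was high in a single library, with 24.1 CPM in double positive library 2 and at most 0.589 CPM in the other 5.

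Of the other genes lower in single positive HSCs, Tlr12, an endosomal receptor for microbial profilin in mice, had 0.333, 1.08 and 1.36 CPM in single positive libraries, against 3.81, 6.18 and 5.54 CPM in double positive libraries (log2 fold change -2.48). Fkbp14, a prolyl isomerase of the endoplasmic reticulum, had 3.90, 3.34 and 4.02 CPM in single positive libraries and 9.94, 14.4 and 8.88 CPM in double positive libraries (-1.56). Double negative libraries were on average nearer to the single positive level for both genes, with 0.248, 1.27 and 2.49 CPM for Tlr12 and 3.43, 4.90 and 7.92 CPM for Fkbp14. Adamtsl5, a secreted relative of the ADAMTS proteases without protease activity, had 11.9, 15.1 and 15.3 CPM in single positive libraries and 24.2, 40.0 and 19.6 CPM in double positive libraries (-0.98). Mospd2, a tether at contact sites of the endoplasmic reticulum, had 9.65, 6.97 and 11.0 CPM in single positive libraries and 17.3, 19.8 and 20.3 CPM in double positive libraries (-1.06). G2e3, a ubiquitin ligase of the DNA damage response, was the most abundant of the 20, with 36.7, 46.5 and 35.5 CPM in single positive libraries and 69.7, 77.0 and 51.0 CPM in double positive libraries (-0.74).

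No HSC identity gene passed the test. The list of 40 had a median of 0.041, with 24 positive, and of -0.021 without double positive library 1. Mecom, a transcription factor needed for HSC self-renewal, had 119, 174 and 104 CPM in single positive libraries and 84.4, 152 and 142 CPM in double positive libraries. Procr, the protein C receptor that marks HSCs, had 157, 101 and 128 CPM in single positive libraries and 111, 118 and 124 CPM in double positive libraries. Vwf, von Willebrand factor, which marks platelet-biased HSCs, had 83.8, 87.6 and 80.2 CPM in single positive libraries and 74.1, 124 and 84.6 CPM in double positive libraries, so these groups overlapped (log2 fold change -0.17, interval -0.67 to 0.34). Both were above the double negative libraries, at 22.8, 19.04 and 27.8 CPM. Vwf was the 1 gene of 15375 (0.0065%) called between double positive and double negative HSCs (edgeR, Benjamini-Hochberg adjusted p 0.0251), and 0 genes (0%) were called in edgeR between single positive and double negative HSCs, where DESeq2 called 20 and limma voom 0. Those contrasts share their libraries with the comparison of the colours. They gave 1315 and 1160 genes at an unadjusted p under 0.05 (8.55% and 7.54%), against 209 between single positive and double positive HSCs.

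Lists of growth and protein turnover differed by little, and none held a called gene. The 26 DNA replication genes had the highest median of the pathway lists, 0.26, with 24 positive. Pcna, the sliding clamp of the replication fork, had 237, 237 and 285 CPM in single positive libraries, against 202, 215 and 186 CPM in double positive libraries (log2 fold change 0.33, interval -0.039 to 0.70). Mcm5, a subunit of the replicative helicase, did not overlap either, with a log2 fold change of 0.33. Summed over the list, single positive libraries had 4095, 5445 and 5445 CPM and double positive libraries 4032, 4237 and 4259 CPM, so single positive library 1 lay among the double positive ones. Without it the median was 0.41, and without single positive library 2 it was 0.17. The 26 mitosis genes had a median of 0.027 (-0.21 to 0.28 with 1 library left out), and Mki67, the proliferation antigen, overlapped at 5.99, 12.2 and 15.2 CPM in single positive libraries and 2.85, 5.68 and 10.2 CPM in double positive libraries.

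The 76 cytosolic ribosomal protein genes had a median of -0.17, with 74 negative. Their sums were 82206, 52538 and 61192 CPM in single positive libraries and 82360, 82376 and 54774 CPM in double positive libraries, which overlap, and no member was without overlap. Without single positive library 2 the median was -0.017, and without single positive library 1 it was -0.39. The 13 transcripts of the mitochondrial genome were all negative at a median of -0.27, which was -0.045 without double positive library 1. Sums over those transcripts were 10946, 8330 and 8959 CPM in single positive libraries and 12914, 11178 and 8603 CPM in double positive libraries. In both lists double positive library 3 lay within the range of the single positive libraries. Single positive library 1 lay near double positive library 2 in both, so neither sum separated the groups. Nuclear genes of oxidative phosphorylation had a median of -0.017 over 46 members (-0.13 to 0.079 with 1 library left out).

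For protein quality control, 26 of 32 proteasome subunits were positive at a median of 0.094, 22 of 28 heat shock and cytosolic chaperone genes at 0.13, and 20 of 25 genes of the endoplasmic reticulum and unfolded protein response at 0.15. Leaving out 1 library moved these medians to 0.059 to 0.16 for the proteasome, 0.091 to 0.17 for the chaperones and 0.040 (without double positive library 2) to 0.22 for the endoplasmic reticulum. Members share the same libraries and are not replicates, and the sum of each list overlapped between the groups. Single positive against double positive libraries had 8127 to 9614 against 7593 to 9207 CPM for the proteasome. The chaperones had 8848 to 9737 against 7773 to 8994 CPM, and the endoplasmic reticulum list 6145 to 6946 against 5180 to 6536 CPM. Hsph1, a nucleotide exchange factor for Hsp70, had 27.0, 47.4 and 43.4 CPM in single positive libraries and 23.2, 18.0 and 31.0 CPM in double positive libraries (log2 fold change 0.71, interval 0.025 to 1.39), and overlapped in 1 library. Psmd2, a scaffold of the proteasome cap, did not overlap, at 360, 416 and 409 CPM in single positive libraries and 315, 325 and 354 CPM in double positive libraries (0.25). Hspa5, the chaperone BiP, had 404, 470 and 629 CPM in single positive libraries and 378, 349 and 507 CPM in double positive libraries. Targets of ATF4, NRF2, p53 and NF-kB had medians of 0.12, -0.0057, -0.091 and 0.0088. Leaving out 1 library gave 0.047 to 0.23 for ATF4 and -0.19 to -0.081 for p53 targets, and turned the sign of the NRF2 and NF-kB medians.

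**Figure D5:**
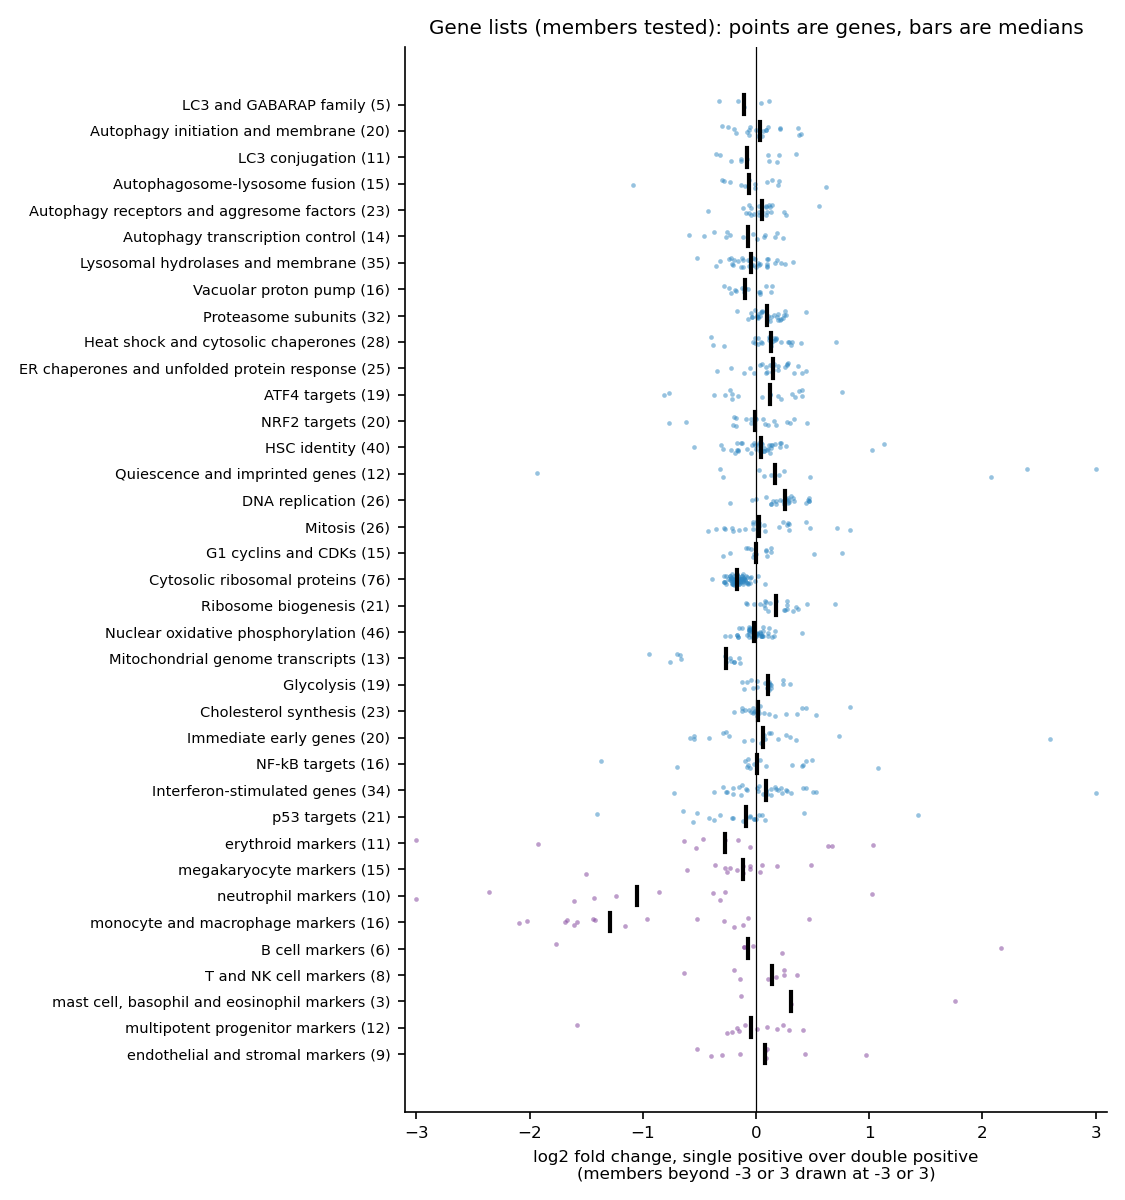
Log2 fold changes of single positive over double positive HSCs (horizontal axis) are drawn for the tested members of 37 gene lists (rows, number tested in parentheses), with 1 point per gene and a black bar at each median. The 28 pathway medians (blue) lie between -0.27 and 0.26, and the medians of the monocyte and macrophage list (-1.29) and of the neutrophil list (-1.05) lie farthest from 0. Many members of these 2 lists are at low level, where fold changes spread more. Over all genes, the median size of a log2 fold change was 0.77 under 1 CPM and 0.094 at 100 CPM or more.

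Genes seen in all libraries of a group and in none of the other were mostly at low level. Of 47729 genes, 84 had counts in all 3 single positive libraries and 0 in all 3 double positive libraries. Of these 84, 37 were protein-coding and 7 averaged at least 1 CPM. In the reverse direction there were 41 genes, 9 protein-coding and 2 at 1 CPM or more. Detection differed as well, with 17759, 18004 and 17738 genes in single positive libraries and 16862, 17182 and 18094 in double positive libraries. Its part in the difference between 84 and 41 was not tested. The highest of the 84 was Stag3, a cohesin subunit of meiosis, with 77, 32 and 10 counts in single positive libraries and 0, 0 and 19 in double negative libraries. Against the floor of 3 counts per library it was at least 13.6-fold higher in single positive HSCs, and at least 7.43-fold without single positive library 1. Such genes were picked for their 0 counts, and the bounds cover counting error only, not the spread between libraries. Tmem45a2 was the highest of the 41, with 12, 157 and 5 counts in double positive libraries, at least 17.9-fold lower in single positive HSCs, a bound that fell to 2.87-fold without double positive library 2.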

How the data were processed

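RNA from sorted HSCs was sequenced in 21 libraries, of which the 9 reporter libraries were analysed here. The 12 libraries of the treatment experiment gave only an estimate of spread. The authors deposited raw counts per gene for 47729 genes, and 0 columns had no sample. Per the labels' protocols, RNA was extracted with an RNeasy Plus Micro kit and libraries were made by SMART-seq2. Per the submitters' processing notes, Bowtie 1.0.0, STAR 2.6.1 and HTSeq 0.7.1 were used, and the builds GRCm38.p4 and GRCh38 are named without roles. Neither the strand setting nor the annotation release is given in the sources used here.

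The analysis used edgeR 4.0.16 in R 4.3.3: filterByExpr (15375 genes), TMM scaling, a quasi-likelihood fit of group means over the 9 libraries, and Benjamini-Hochberg adjustment with calls under 0.05. CPM values use TMM-scaled library sizes. The SE is the absolute log2 fold change over the square root of F, and 95% intervals use the t quantile. The floor of 3 counts is 0.125 to 0.161 CPM in double positive and 0.143 to 0.156 CPM in single positive libraries; floors cover counting error only. No 2 libraries of a group were duplicates.

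Named genes are protein-coding, have a standard name and average 5 CPM or more in either group: called genes and called list members (none), then the smallest p among genes whose libraries do not overlap, up to 20, then a set of autophagy, lysosome and sort genes always given, and from each list its extreme and non-overlapping members in part. The 37 gene lists and the named-gene rule were chosen with earlier results of these data known, and the lists for the Dlk1 to Dio3 domain and for tissue macrophages after these values were seen. Coordinates are from GENCODE M21 (GRCm38), matched by ID (47224 of 47729). Promoters are from RefSeq (GRCm38.p6), matched by symbol for 4 genes.

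Alternatives were relative log expression factors, the DESeq2 1.42.0 Wald test, voom with sample weights (limma 3.58.1), no count filter, only 6 libraries, the replicate number as a block, the Xist share as a covariate and leaving out each library. The procedure was tested on simulated data. Figures used Python 3.11 and matplotlib 3.10.9.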

Additional observations from a re-analysis of the deposited data

How the results depend on the processing

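The count of 0 genes between single positive and double positive HSCs held at an adjusted p under 0.1 and under 16 of 17 alternatives, and the DESeq2 Wald test called 2. Between single positive and double negative HSCs 0 genes were called, but DESeq2 called 20, the fit without a filter on low counts 6 and the replicate block 2. For double positive against double negative HSCs, where 1 gene was called, DESeq2 called 55, no filter gave 8 and voom 0. The rule used asked for a correlation over 0.1 in every same-numbered pair, and by it the numbers did not pair the libraries. Deviations from the group means correlated at 0.12, 0.054 and 0.093 for same-numbered single positive and double positive libraries. Each library nevertheless correlated best with its own number. The Xist share followed the number too. It was 99.9%, 97.4% and 88.1% in single positive, double positive and double negative library 2, and at most 10.2% in all others. Whether same-numbered libraries share mice or pools was not tested, and the main fit ignores any such pairing. With the replicate block, 363 genes had an unadjusted p under 0.05 with 9 libraries and 530 with 6, against 209 without it, and 0 were called in each. The sign of the log2 fold change was kept under all alternatives by the 20 genes of smallest p and by 16 of 37 list medians. Those 20 genes were picked among genes without overlap, where leaving out a library could hardly turn the sign. Their kept sign therefore lends them no support and cannot be set beside that of the list medians. Under voom, Gabarapl1 was -0.0085, Slamf1 0.023, E2f2 0.022 and Cxcl12 2.70; with the Xist covariate Chac1 was 1.40 and Cxcl12 0.88; with the replicate block Cxcl12 was 2.64 (9 libraries) and 2.22 (6 libraries). Leaving out each library turned the sign of these log2 fold changes, whose ranges were Atf6 -0.54 to 0.073, Atg5 -0.27 to 0.034, Atp6v1h -0.024 to 0.31, Cd247 -1.02 to 0.16, Cd48 -1.04 to 0.23, Cd74 -0.0072 to 1.11, Chac1 -3.04 to 2.38, Ctsd -0.012 to 0.088, Cxcl12 -1.09 to 3.69, Ddx3y -1.04 to 0.19, E2f2 -0.64 to 0.24, Gabarapl1 -0.087 to 0.14, Gins1 -0.35 to 0.038, Il4 -0.72 to 0.37, Kit -0.28 to 0.16, Lamp2 -0.20 to 0.15, Map1lc3a -0.023 to 0.29, Me1 -0.060 to 1.02, Mest -3.87 to 0.60, Rpl24 -0.67 to 0.088, Rpl5 -0.086 to 0.30, Rragd -6.55 to 2.29, Slamf1 -0.18 to 0.12, Slc2a3 -0.30 to 0.068, Tfeb -0.039 to 0.39 and Xist -4.26 to 6.79. The cause of each turn was not tested. Depth limits the genes under 5 CPM most.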

Other observations

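Genes of tissue macrophages other than those of the marker list were looked at after the C1q values were seen. Of 19 such genes 18 could be tested, 16 were negative in single positive against double positive HSCs, and the median log2 fold change was -0.59. Cd5l, Trem2 and Aif1 were among those whose groups did not overlap, with the lower values in single positive HSCs. Cd5l, a scavenger receptor family protein secreted by macrophages, had 1.66, 1.28 and 1.88 CPM in single positive libraries, against 15.3, 11.1 and 2.92 CPM in double positive libraries. Aif1, the calcium-binding protein IBA1, had 3.33, 3.34 and 1.36 CPM in single positive libraries and 8.33, 5.64 and 4.63 CPM in double positive libraries. Slc40a1, the iron exporter ferroportin, was highest in double positive library 1, with 19.6, 15.7 and 17.3 CPM in single positive libraries and 85.1, 16.3 and 27.5 CPM in double positive libraries. None of the 18 had an unadjusted p under 0.05 in edgeR. Apoe and Ctsb, the members of highest level, overlapped, at 572, 560 and 715 CPM in single positive libraries and 684, 678 and 576 CPM in double positive libraries for Apoe.

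Krueppel-like factor Klf2, which restrains cell activation, was low throughout but without overlap, at 2.95, 1.42 and 4.07 CPM in single positive libraries and 0.645, 0.409 and 0.333 CPM in double positive libraries (log2 fold change 2.59, interval -0.17 to 5.36). The chemokine Ccl3 lay the other way, at 0.856, 0.786 and 0.887 CPM in single positive libraries and 2.53, 2.23 and 1.79 CPM in double positive libraries (-1.37). Neither was called.

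The spread of replicate libraries differed between the experiments of the series. The common biological coefficient of variation estimated by edgeR was 0.482 over the 9 reporter libraries and 0.354 over the 12 libraries of the treatment experiment. Estimated on each group alone, it was 0.256 for single positive, 0.319 for double positive and 0.382 for double negative libraries. Each estimate used the genes that passed the count filter in its own set of libraries, so these values rest on different genes.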
